A study of Carthamus tinctorius with 15 samples.

Results

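Stem-specific genes of safflower (Carthamus tinctorius) were described across 4 tissues. Of 33242 genes in the expression table, 26625 had reads in at least 1 library, and 58 were stem-specific. A gene was counted as stem-specific where its mean in stem exceeded the highest of its means in root, leaf and flower by at least 2 on the log2(FPKM + 1) scale. This difference is called the gap below. FPKM sets the reads of a gene against both its length and the depth of its library. The 58 genes were chosen on these same values, so their higher level in stem is a description without a test.

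Safflower is an oil crop of the daisy family, and the series title names the formation of oil in its seeds. The groups used were stem, root, leaf and flower, with 3 libraries each. The labels give a tissue and a replicate number and name no cultivar, age or treatment. Whether the libraries of a tissue are from different plants is not said, and the p-values therefore measure only a spread between libraries that may be technical. The 3 seed libraries were not analysed here.

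A stem links root and leaf through xylem, which carries water, and phloem, which carries sugars. It holds the shoot upright with cells whose thick walls are stiffened by lignin, and it keeps dividing cells in its tip and its cambium. Root shares conducting tissue with stem, and leaf shares veins and green cells with it. The table used pairs no row with a gene name, an identifier, a position or a sequence, so none of the 58 genes can be assigned to such a role here, and the tissue labels were not checked against marker genes. Each gene is named by the number of its row among the rows of values, starting at 1, and given with its length as recovered from the FPKM. In bulk tissue, more cells of a type and more RNA per cell cannot be told apart.

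Library totals recovered from the values ran from 28391416 to 30563169 reads in stem, from 26183138 to 29184532 in root, from 30929338 to 31500664 in leaf and from 29363997 to 30488919 in flower. Over the 3 stem libraries a stem-specific gene had between 231 and 372132 reads, with a median of 3556. All 58 genes passed the filter used for the tests below, at least 1 FPKM in at least 3 of 12 libraries. Of them, 9 passed it through stem alone. None was identical to another row of the table.

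The stem-specific genes spanned a wide range of levels in stem. Their stem means ran from 4.35 to 1870 FPKM, with a median of 36.7, and 16 of the 58 reached 100 FPKM. In root the median was 1.65 FPKM, in leaf 3.66 and in flower 0.197. Together the 58 genes held 0.909%, 0.921% and 0.925% of all FPKM in the stem libraries. They held 0.0934% to 0.0967% in the root libraries, 0.123% to 0.124% in leaf and 0.0183% to 0.0211% in flower. One gene, row 19359, weighed heavily in the stem sum, and without it the stem share was 0.673% to 0.684%.

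**Figure D1:**
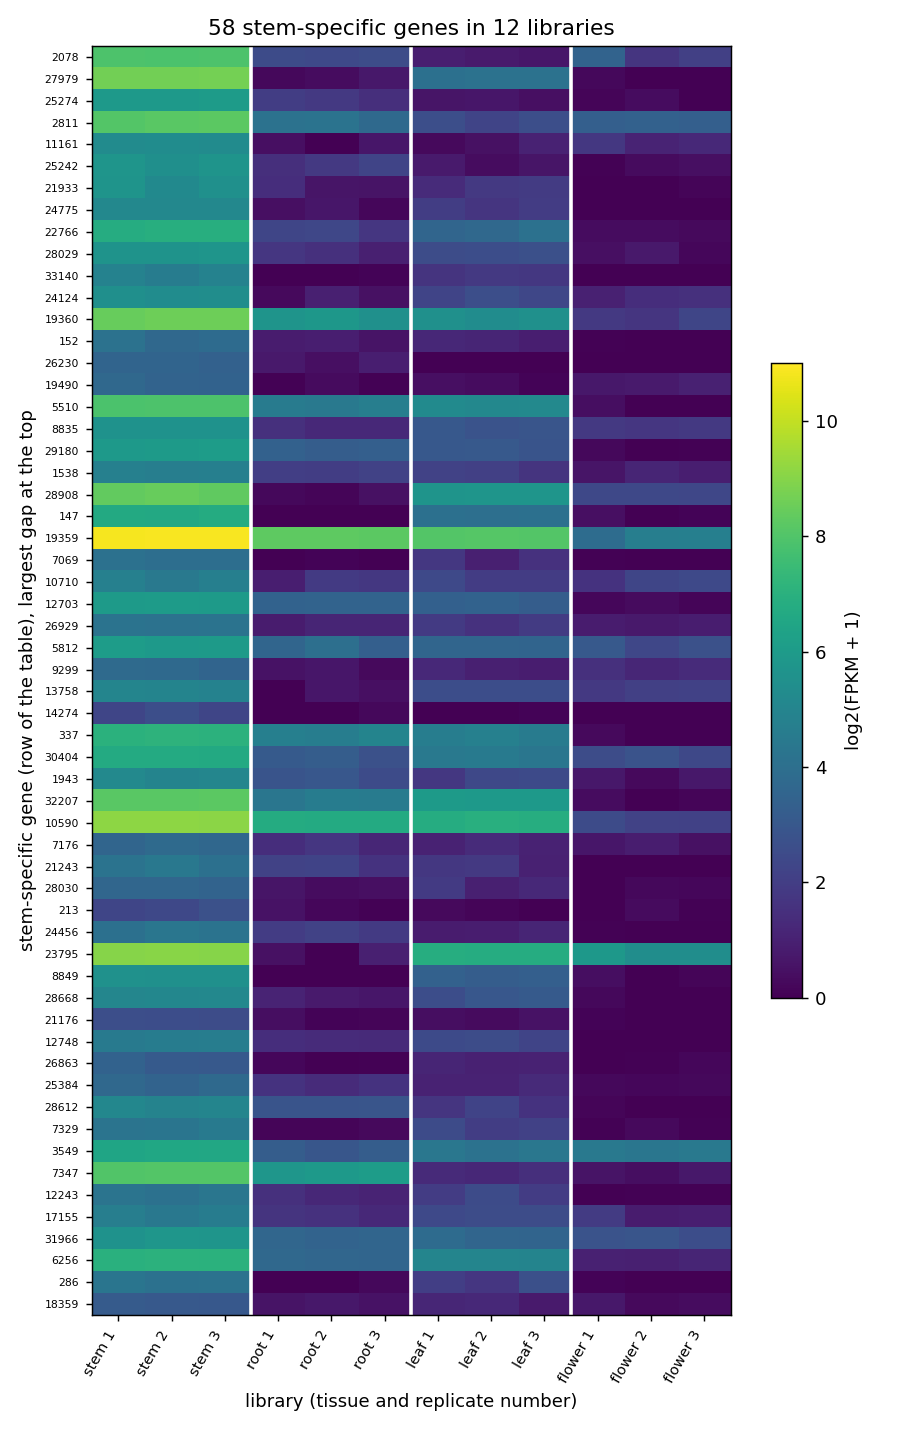
Level of each of the 58 stem-specific genes (down the page, largest gap at the top) in the 12 libraries (columns: stem, root, leaf and flower, replicates 1 to 3), as colour on the log2(FPKM + 1) scale. The stem columns are the brightest in each row, leaf and root keep intermediate levels for many genes, and flower is near 0 for most, with 39 genes at a mean below 1 FPKM.

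The most abundant stem-specific genes were far from silent in at least 1 other tissue, though some were near 0 in root. Row 19359 (2263 bases) was at 1848, 1876 and 1887 FPKM in stem, against 309.8, 307 and 294.7 in root, 265.6, 272.1 and 268.2 in leaf, and 13.8, 24.9 and 26.1 in flower. Its stem mean was 6.16-fold the root mean, and no library of another tissue came near the stem libraries. Row 10590 (2057 bases) had a similar layout, at 552.4, 559.9 and 544.6 FPKM in stem, 106.6, 105.7 and 104.8 in root, 111.9, 122.1 and 114.7 in leaf, and 4.76, 3.54 and 3.4 in flower. Row 23795 (871 bases) differed from both, since it was nearly absent from root. It was at 519, 535 and 514.2 FPKM in stem, 0.413, 0 and 0.984 in root, 113.4, 111.6 and 112.6 in leaf, and 56.7, 41 and 41.5 in flower. Row 28908 (1314 bases) likewise had little in root, at 330.1 ± 12.9 FPKM (SD, n = 3) in stem, 0.242 ± 0.157 in root, 51.9 ± 0.862 in leaf and 4.18 ± 0.0557 in flower. Row 19360 (510 bases) was at 369.2 ± 18.3 FPKM in stem, 50.7 ± 5.44 in root, 42.9 ± 2.97 in leaf and 2.88 ± 0.917 in flower. Row 27979, also among the 6 highest stem means and given below, had 16.3 FPKM in leaf but was near 0 in root and flower.

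Large gaps were few. The gaps ran from 2.01 to 5.42 with a median of 2.36. A gap of at least 3 was reached by 12 genes and one of at least 4 by 4 genes, while 32 genes lay under 2.5. As ratios of mean FPKM to the tissue with the next highest log2 mean, the 58 genes ran from 4.2-fold to 69.1-fold with a median of 6.67. The highest ratio, of row 14274 (725 bases), rests on root replicate 3, its only root library with reads, and was 149-fold without it, then against leaf. The next highest was 52-fold, in row 2078. The ratio of row 213 was 21.6-fold, and 40.7-fold without root replicate 1. The lowest stem library was at least 2.95 times the highest of the other 9 libraries in each gene. By the same rule 314 genes were root-specific, 493 leaf-specific and 1156 flower-specific, so stem had the fewest. A gap of at least 4 was reached by 6.9% of the stem-specific genes, 18.8% of the root-specific, 15.4% of the leaf-specific and 30.4% of the flower-specific ones. These shares are descriptions of genes chosen by the values themselves.

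**Figure D2:**
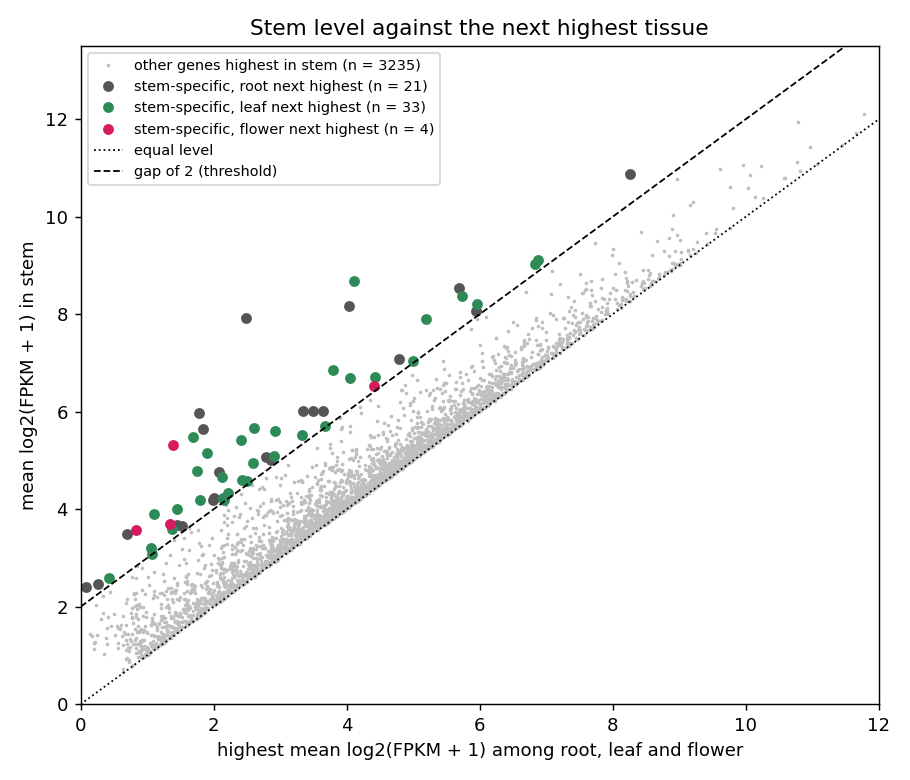
Mean level in stem (vertical axis) against the highest mean among root, leaf and flower (horizontal axis), both as log2(FPKM + 1), for tested genes that are highest in stem. Coloured points are the 58 stem-specific genes, which lie on or above the dashed line of a gap of 2, by the tissue that comes next (21 root, 33 leaf, 4 flower), and grey points are the other 3235 genes.

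Row 2078 (1287 bases) had the largest gap, 5.42. It was at 242.8, 237.6 and 238.9 FPKM in stem, against 4.69, 4.3 and 4.85 in root, 0.879, 0.74 and 0.594 in leaf, and 10.3, 2.2 and 3.21 in flower. Flower replicate 1 stood above the other 2 flower libraries, and its value sets the flower mean. Row 27979 (1778 bases) followed with a gap of 4.57, at 408.5 ± 4.49 FPKM (SD, n = 3) in stem, 0.366 ± 0.239 in root, 16.3 ± 0.664 in leaf and 0.0616 ± 0.107 in flower. Leaf was its clear second tissue. Row 25274 (1710 bases) had a gap of 4.2, at 59.9, 61 and 65.5 FPKM in stem, 3.01, 2.59 and 1.82 in root, 0.548, 0.594 and 0.354 in leaf, and 0.115, 0.299 and 0.0192 in flower. Row 2811 (951 bases) had a gap of 4.13, at 285.5 ± 19.1 FPKM in stem, 15.4 ± 2.41 in root, 4.79 ± 0.851 in leaf and 9.3 ± 0.322 in flower.

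The other genes with a gap of 3 or more had stem means from 26.6 to 115.5 FPKM. In stem, row 11161 (573 bases) had 38.8 ± 0.711 FPKM (SD, n = 3), against 0.325 ± 0.302 in root, 0.556 ± 0.44 in leaf and 1.68 ± 0.701 in flower. Row 25242 (1272 bases) was at 49.1 ± 4.68 FPKM in stem, 2.68 ± 0.992 in root, 0.521 ± 0.219 in leaf and 0.227 ± 0.159 in flower. These 2 had flower and root as their next tissue, while the remaining 6 had leaf. Row 21933 (289 bases), one of the shortest, was at 50.2, 36 and 45.5 FPKM in stem and at 1.57, 2.53 and 2.75 in leaf. Row 24775 (758 bases) was at 34.6, 34.3 and 34.7 FPKM in stem, 0.373 ± 0.235 in root and 2.73 ± 0.41 in leaf, with no read in flower. Row 22766 (582 bases) reached 115.5 ± 3.67 FPKM in stem, with 3.42 ± 0.976 in root, 13 ± 2.6 in leaf and 0.267 ± 0.0362 in flower. Rows 28029 (1216 bases) and 24124 (1140 bases) had stem means of 50.1 and 41.6 FPKM and leaf means of 5.11 and 4.36. Row 33140 (963 bases) had 26.6 ± 2.72 FPKM in stem and 2.38 ± 0.199 in leaf, in root a trace in replicate 3 alone, and no read in flower.

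**Figure D3:**
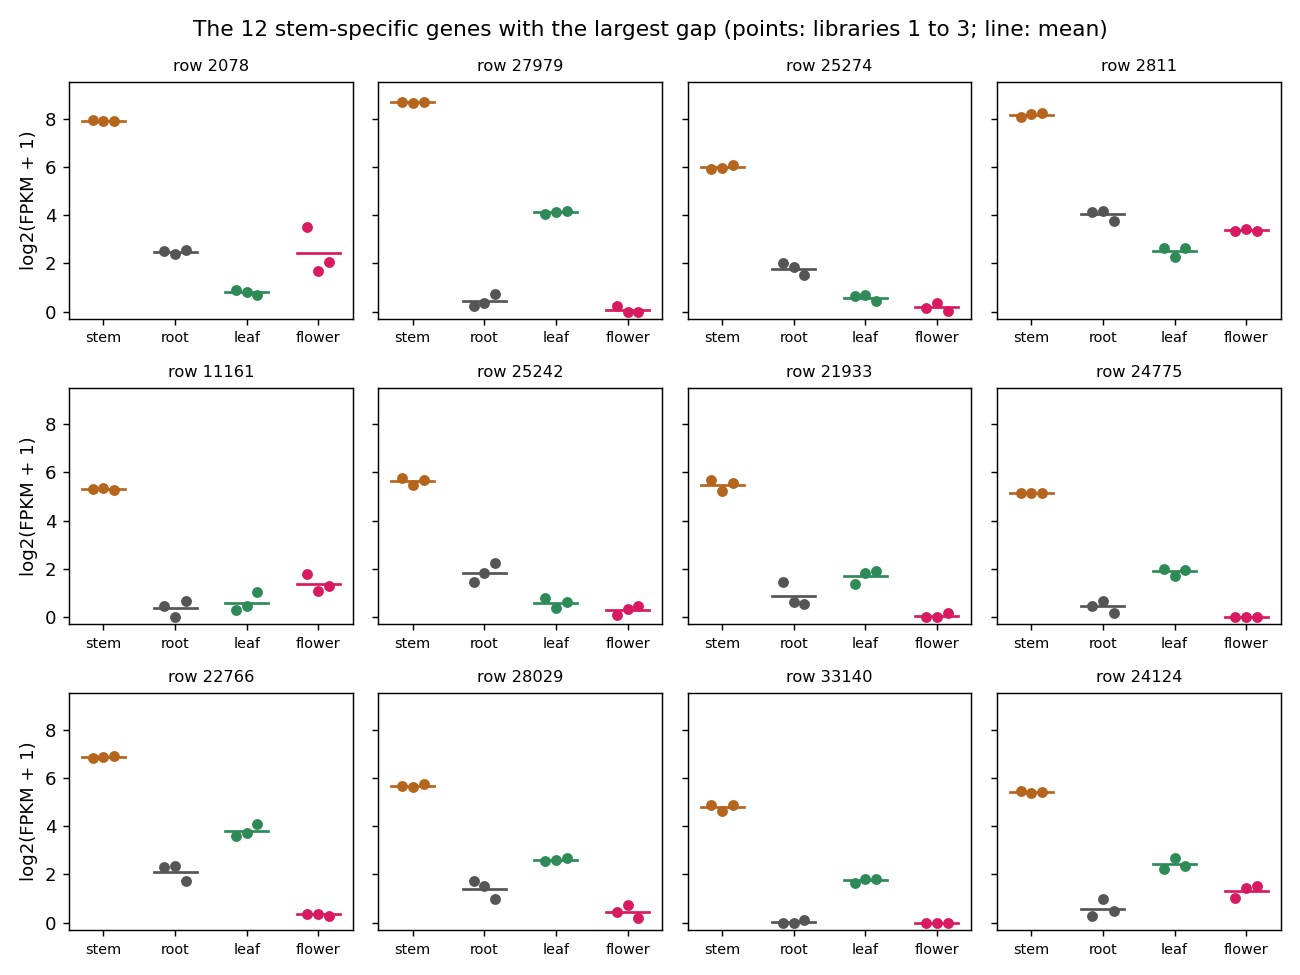
Level of the 12 stem-specific genes with the largest gap in each library, on the log2(FPKM + 1) scale, in stem, root, leaf and flower (points, replicates 1 to 3 from left to right) with the mean of each tissue (line). The stem points lie above those of the other tissues in each gene, and in row 2078 flower replicate 1, at 10.3 FPKM, stands above the other 2 flower libraries.

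Genes at the threshold were not set apart by a break in the values. Just inside it, row 18359 (1197 bases) had a gap of 2.01, and its stem and leaf means were 7.5 ± 0.441 and 1.13 ± 0.344 FPKM (SD, n = 3). Row 286 (411 bases) had 2.03, with 17.2 ± 1.17 FPKM in stem and 3.65 ± 1.65 in leaf, and row 6256 (1849 bases) 2.03, with 130 ± 2.59 FPKM in stem and 31 ± 0.373 in leaf. Just outside it, row 32339 (805 bases) had 1.99, row 11014 (1036 bases) 1.99 and row 24158 (1144 bases) 1.98. Their stem means were 11.3, 6.12 and 57.8 FPKM. These 6 genes straddle the line with nearly equal gaps.

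Few stem-specific genes were silent in the other tissues. In 5 of the 58 every other tissue mean was below 1 FPKM, which was 8.62%, against 47.8% of root-specific, 26.6% of leaf-specific and 36.5% of flower-specific genes chosen by the same rule. No stem-specific gene was without reads in all 9 other libraries, and 33 had reads in each of the 12 libraries. Below 1 FPKM were 25 genes in root, 10 in leaf and 39 in flower. Flower thus had the most of these genes below 1 FPKM. Over all genes tested, too, calls lower in flower were more frequent than calls higher in flower. Of all genes tested, 39.8% were called higher in root than in flower and 17.3% lower. For leaf and flower these shares were 37.1% and 18.6%. The share of all genes below 1 FPKM in each tissue was not computed.

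Reads were missing from a whole tissue in 8 cases. In flower, 6 genes had no read in the 3 libraries, and their stem levels were at least 787.8-fold (row 24775), 770.2-fold (row 33140), 590.7-fold (row 26230), 94.96-fold (row 14274), 149.9-fold (row 21243) and 1608-fold (row 12748) higher, against the level that 3 reads over the 3 flower libraries would give. Row 8849 (1386 bases) had no read in root and was at 45.8, 44.6 and 45.2 FPKM in stem, at least 1738-fold higher against 3 reads over the root libraries. Row 26230 (1920 bases) had none in leaf or flower and was at 10.5, 10.5 and 9.58 FPKM in stem, against 0.674, 0.358 and 0.874 in root. It was the one stem-specific gene read in root and stem alone. These floors cover counting error only.

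Leaf, and not root, came next for most stem-specific genes. Leaf had the highest mean outside stem in 33 genes (56.9%), root in 21 (36.2%) and flower in 4 (6.9%). Among the other 3235 tested genes that were highest in stem, root came next in 63.8% and leaf in 27%. The share with leaf next was 23.6% for gaps under 0.5, 34.8% from 0.5 to 1, 40.2% from 1 to 1.5, and 50.8% from 1.5 to 2. The mean of the next tissue is part of the gap that chose the genes, so these shares are descriptions without a test. After median-ratio scaling, an alternative that sets the median gene equal between libraries, leaf was next in 65.5% of the 58 genes and 30% of the others. Root was then next in 22.4% of the 58 genes and flower in 12.1%. Without that scaling, the genes with flower next were rows 11161, 19490, 9299 and 3549.

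**Figure D4:**
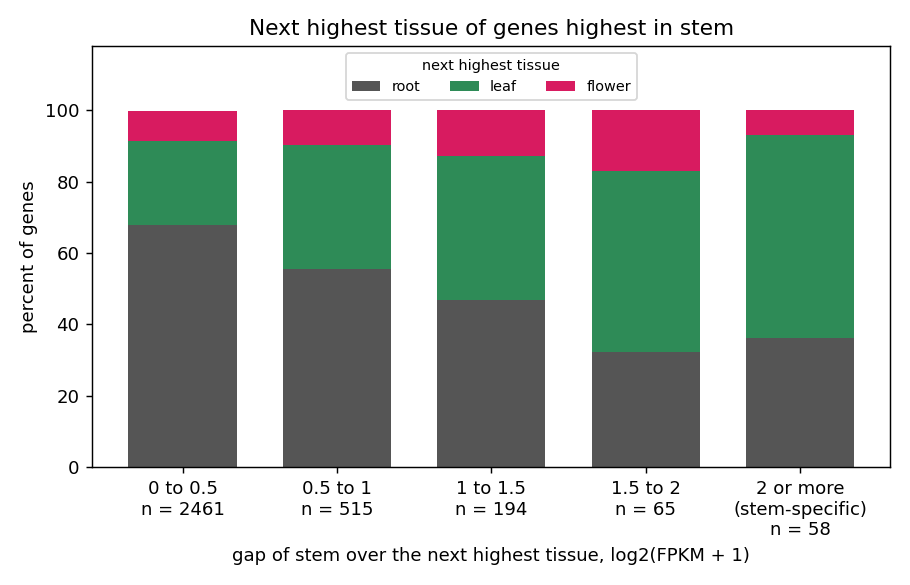
Share of genes (percent, vertical axis) whose next highest tissue was root, leaf or flower, for tested genes highest in stem, in classes of the gap on the log2(FPKM + 1) scale (horizontal axis, number of genes under each bar). Leaf comes next in 23.6% of genes in the class with the smallest gaps and in 56.9% of the 58 stem-specific genes.

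The choice of the genes set no order among root, leaf and flower, and these 3 pairs were tested. It did use the highest of their means, so the calls below are not independent of the choice. limma was fitted to all 20769 genes that passed the filter, with Benjamini-Hochberg adjustment of the p-values for each pair. A gene was called where its adjusted p lay under 0.05 and its 2 means were 1 or more apart on the log2 scale. Between root and leaf, 7 of the 58 stem-specific genes were higher in root (12.1%, against 20.6% of all genes tested) and 22 were higher in leaf (37.9%, against 16.5%). Root minus leaf had a median of -0.57 over the stem-specific genes and 0.28 over all genes tested. After median-ratio scaling 5 were higher in root (8.62%) and 23 in leaf (39.7%), against 14.8% and 18.8% of all genes. The medians were then -0.70 and 0.04. The balance toward leaf was present with and without that scaling. Of the other 3235 genes highest in stem, 14.2% were higher in root and 6.92% in leaf.

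The stem-specific genes higher in leaf than in root reached large differences. Row 23795, given above, had a root minus leaf difference of -6.33, with SE 0.197 and limma adjusted p = 3.69e-11. Row 28908 differed by -5.42 (SE 0.08, limma adjusted p = 7.81e-14). Also near 0 in root, row 147 (1312 bases) was at 0, 0 and 0.0261 FPKM in root, against 15.7, 15.3 and 15.7 in leaf, with 100.4, 98.5 and 106.7 in stem. Its difference was -4.04 (SE 0.1). For these genes the root libraries held at most traces, and the root and leaf libraries lay far apart. Over the 22 genes higher in leaf the differences ran from 1.01 to 6.33 in size.

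Higher in root than in leaf were rows 7347, 2078, 2811, 25242, 25274, 24456 and 28612. Row 7347 (606 bases) stood out among them, at 54.6, 59.9 and 67.4 FPKM in root, against 1.49, 1.31 and 1.79 in leaf, with 260.2, 267.7 and 266.9 in stem and 0.492 ± 0.156 (SD, n = 3) in flower. Its root minus leaf difference was 4.61, with SE 0.101 and limma adjusted p = 1.72e-12. In the others the difference was at most 1.69, the value of row 2078, with SE 0.34 and limma adjusted p = 0.000688, while row 2811 had 1.51. In 4 genes of this pair the difference fell just under the cutoff of 1 without a single library, while limma adjusted p stayed under 0.05. Row 24456 was at 0.94 to 0.996 without root replicate 2, leaf replicate 1 or leaf replicate 2. Row 28612 lay between 0.901 and 0.992 without root replicate 3, leaf replicate 1 or leaf replicate 3. Row 28029, higher in leaf, was at -0.983 without root replicate 3, and row 17155 between -0.996 and -0.906 without root replicate 3, leaf replicate 2 or leaf replicate 3.

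Between root and flower, 21 stem-specific genes were higher in root (36.2%, against 39.8% of all genes tested) and 5 were higher in flower (8.62%, against 17.3%). Root minus flower had a median of 0.68 over the stem-specific genes and 0.61 over all genes tested, and after median-ratio scaling these were 0.25 and 0. Row 7347 differed by 5.37 for root minus flower (SE 0.101, limma adjusted p = 2.69e-13). Another, row 337 (1779 bases), was at 25.6, 24.4 and 29.9 FPKM in root, against 0.203, 0 and 0 in flower, with 129.2, 136.9 and 134.3 in stem. It differed by 4.69 (SE 0.094), and its only flower reads were in replicate 1. Row 10590 differed by 4.45 (SE 0.084). Each of these had its root libraries well above its flower libraries.

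The 5 genes higher in flower than in root were rows 23795, 28908, 13758, 3549 and 11161. Row 23795 differed by -5.06 for root minus flower (SE 0.197, limma adjusted p = 1.64e-10), while row 28908 differed by -2.07 (SE 0.08). Row 13758 (1589 bases) was at 0.0226, 0.577 and 0.367 FPKM in root, against 2.52, 3.26 and 3.43 in flower, with 5.09, 5.01 and 5.05 in leaf and 31.2, 30 and 28.7 in stem. It differed by -1.64 (SE 0.144). Row 3549 (946 bases) was at 91.6 ± 4.24 FPKM in stem (SD, n = 3), with 7.89 ± 1.04 in root, 18.5 ± 1.77 in leaf and 20.4 ± 1.09 in flower. Row 11161 differed by -1.01 and lost its call without root replicate 2 (-0.82) or without flower replicate 1 (-0.81). After median-ratio scaling 20 genes were higher in root (34.5%, against 27.9% of all genes) and 8 in flower (13.8%, against 26.7%), so that the share higher in root lay above that of all genes with scaling and below it without.

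Between leaf and flower the calls ran almost one way. Of the 58 genes, 35 were higher in leaf (60.3%, against 37.1% of all genes tested) and 1 was higher in flower (1.72%, against 18.6%). After median-ratio scaling these were 30 (51.7%) and 3 (5.17%), against 30.4% and 25.7% of all genes. The median of leaf minus flower was 1.27 over the stem-specific genes and 0.48 over all genes tested, or 1.12 and 0.10 after that scaling. Among the other 3235 genes highest in stem, 41.5% were higher in leaf and 2.63% in flower, so a low share higher in flower was also seen in other genes highest in stem. Without the 9 genes that passed the filter through stem alone, 7 of 49 were higher in root and 21 in leaf for root and leaf, 21 in root and 5 in flower for root and flower, and 32 in leaf and 1 in flower for leaf and flower. As shares of the 49 genes these were 14.3% and 42.9%, 42.9% and 10.2%, and 65.3% and 2.04%. All genes that passed without stem had shares of 20.8% and 16.7%, 40.1% and 17.5%, and 37.4% and 18.8% in the same order.

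Row 32207 (1934 bases) differed most between leaf and flower, at 62, 60.4 and 60.6 FPKM in leaf, against 0.289, 0 and 0.102 in flower, with 290.5, 290.3 and 297.9 in stem and 21.6 ± 2.37 (SD, n = 3) in root. The leaf minus flower difference was 5.79, with SE 0.094 and limma adjusted p = 1.17e-13. Row 5510 (1768 bases) was at 37.1, 34.1 and 35.6 FPKM in leaf, against 0.316, 0.0193 and 0.0186 in flower, with 239.5 ± 3.34 in stem and 22.7 ± 2.03 in root. It differed by 5.04 (SE 0.098), and row 10590 by 4.59 (SE 0.084). In both genes with values given here flower replicate 1 was the highest flower library. Row 2078 was the gene higher in flower than in leaf, with a difference of -1.62 (SE 0.34, limma adjusted p = 0.000768). That value moved to -1.08 without flower replicate 1 and kept its call. Rows 1538, 28030 and 24124 lost theirs without a single library, at 0.93 to 0.96 for row 1538 (leaf replicate 1 or flower replicate 1), 0.97 for row 28030 (leaf replicate 1) and 0.94 to 0.96 for row 24124 (leaf replicate 2 or flower replicate 1).

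**Figure D5:**
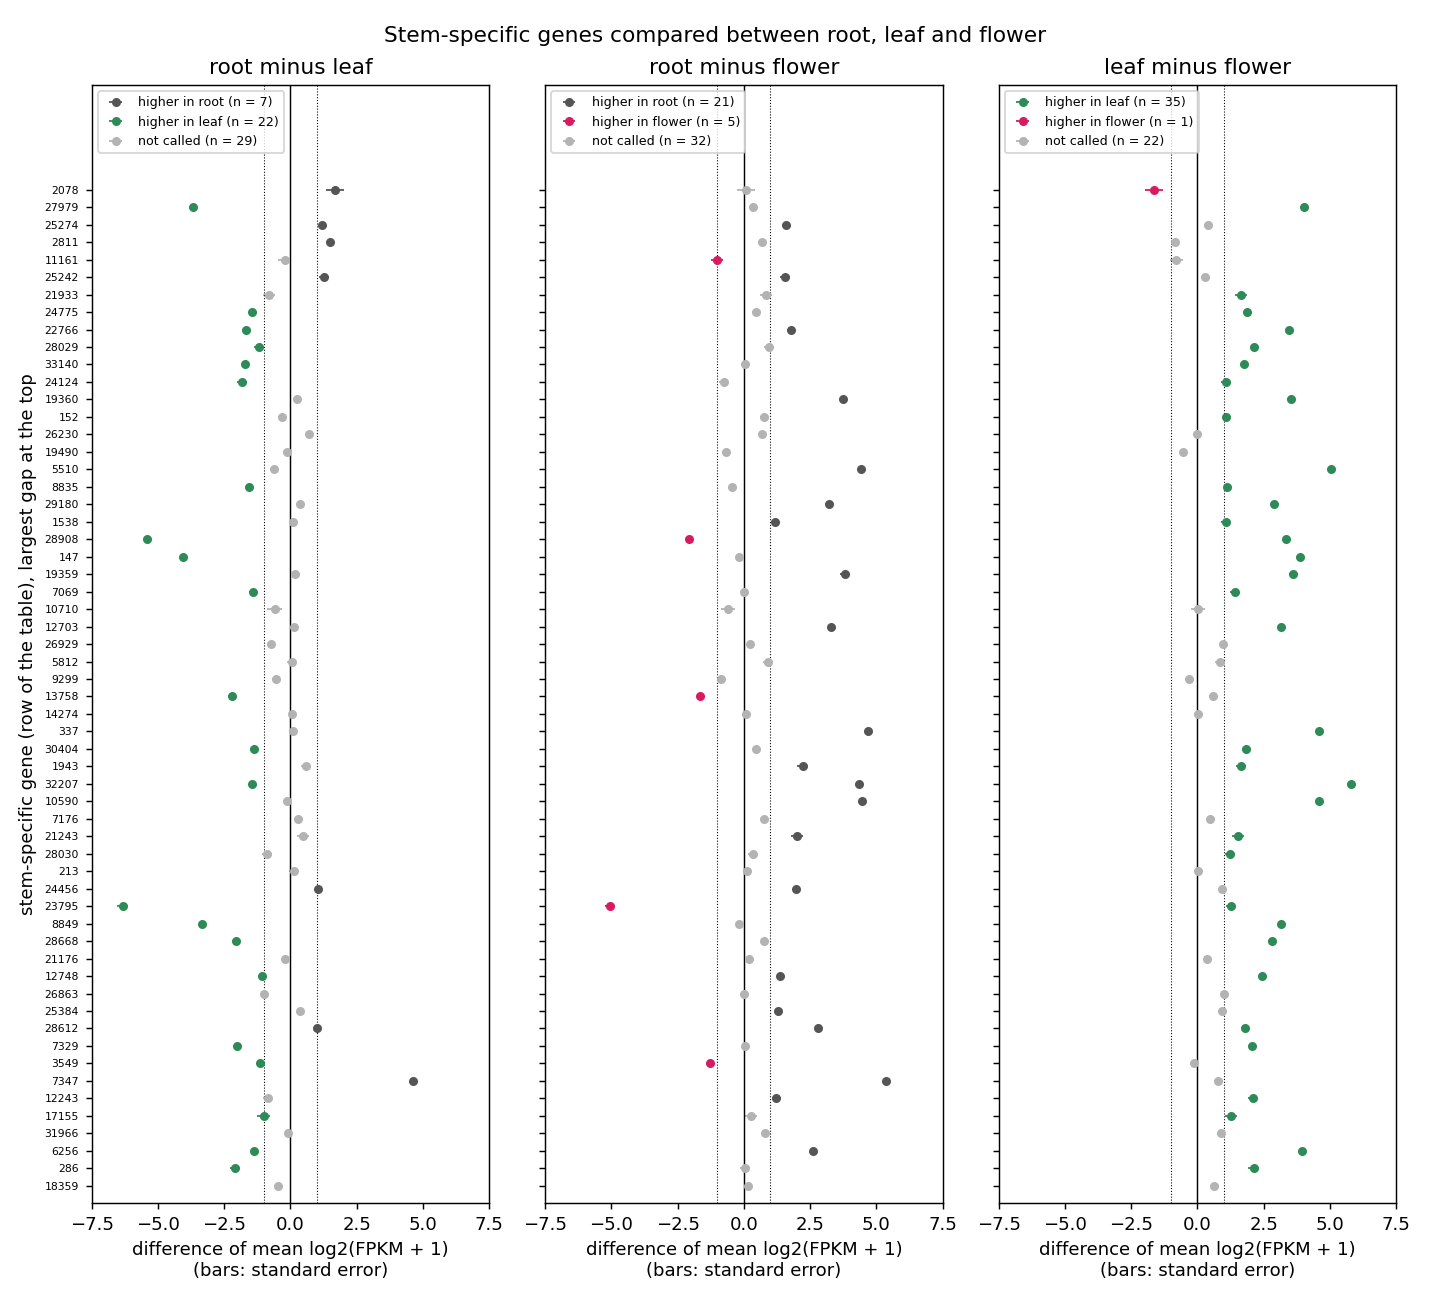
Differences between root and leaf, root and flower, and leaf and flower in each stem-specific gene (down the page, largest gap at the top), as differences of mean log2(FPKM + 1) with their standard errors (bars). Colours mark the tissue in which a gene was called higher and grey marks no call; in the third panel 35 genes are higher in leaf and 1 in flower.

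Over the 3 pairs, the stem-specific genes fell into many patterns, some held by a single gene. The most frequent, with 14 genes, was higher in leaf than in both root and flower with no call between root and flower. It took in 24.1% of the stem-specific genes, against 6.9% of all genes tested and 2.75% of the other genes highest in stem. It held rows 27979, 24775, 28029, 33140, 24124, 8835, 147, 7069, 30404, 8849, 28668, 7329, 17155 and 286, with stem means from 15.1 to 408.5 FPKM. Row 7069 among them passed the filter through stem alone. In 11 genes (19%, against 18.9% of all genes tested) root and leaf were both above flower and not called different from each other, namely rows 19360, 5510, 29180, 1538, 19359, 12703, 337, 1943, 10590, 21243 and 12243. These included the 2 most abundant stem-specific genes. In 4 genes (rows 22766, 32207, 12748 and 6256) leaf was above root and root above flower (6.9%, against 2.63%), and in 4 (rows 25274, 25242, 24456 and 7347) root was above both leaf and flower (6.9%, against 7.4%). Row 28612 stepped down through root, leaf and flower, as did 4.81% of all genes.

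Leaf was above flower with no other call in rows 21933, 152 and 28030 (5.17%, against 2.2%), of which rows 152 and 28030 passed the filter through stem alone. Leaf was above flower and flower above root in rows 28908 and 23795 (3.45%, against 1.68%), and both leaf and flower were above root in rows 13758 and 3549 (3.45%, against 2.85%). Like row 28612, rows 2078, 2811, 11161 and 25384 each had a pattern that no other stem-specific gene shared. Row 2078 was above leaf in both root and flower (3.67% of all genes tested had that pattern). Root above leaf was the only call in row 2811 (2.09%), flower above root in row 11161 (1.08%) and root above flower in row 25384 (5.33%). In 13 genes no pair was called, which was 22.4%, against 24.8% of all genes tested and 38.5% of the other genes highest in stem. They were rows 26230, 19490, 10710, 26929, 5812, 9299, 14274, 7176, 213, 21176, 26863, 31966 and 18359, with stem means from 4.35 to 63.2 FPKM. Among them, rows 26230, 19490, 14274, 213, 21176 and 18359 passed the filter through stem alone. In rows 26230, 14274, 213 and 21176 all 9 other libraries were below 1 FPKM, so a difference of 1 could not be reached. The shares of the patterns were not computed without genes that passed through stem alone. Row 31966 (1449 bases) kept a moderate level in each tissue, at 51.4 ± 2.82 FPKM (SD, n = 3) in stem, 10.9 ± 0.492 in root, 11.7 ± 1.42 in leaf and 5.84 ± 0.716 in flower.

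Spread within stem was close to that of other genes. Over the 56 stem-specific genes with a stem mean of at least 5 FPKM, the coefficient of variation across the 3 stem libraries had a median of 4.7%, against 5.34% over the 14505 tested genes at that level. It was under 5% in 30 genes and at least 10% in 11. Row 8835 (2350 bases) varied least, at 47.8, 47.7 and 48.1 FPKM (0.416%), followed by row 24775 (0.532%). Both values lie below the 1.74% and 3.61% that counting error alone gives for their reads, so 3 libraries cannot resolve them. Row 21933 varied most (16.5%, against 5.19% from counting), followed by row 26863 (986 bases) at 9.9, 7.64 and 7.47 FPKM (16.3%, against 6.45%). Replicates 1, 2 and 3 were the highest stem library for 24, 16 and 18 genes, or 41.4%, 27.6% and 31%, against 33.3%, 33.4% and 33.3% of all genes tested.

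Flower replicate 1 was the highest flower library more often than the other 2, for the stem-specific genes as for all genes. It had reads for 47 of the 58 genes (81%), against 41 (70.7%) in replicate 2 and 44 (75.9%) in replicate 3, and over all genes tested these shares were 95.2%, 93.5% and 93.5%. It was the highest flower library for 24 of the stem-specific genes (46.2% of those with flower reads), against 46.8% of all genes tested. The sum over the 58 genes was 165.1 FPKM in flower replicate 1, and 145.9 and 151.2 in the other 2. In root, replicate 3 had reads for 56 genes, against 52 and 50 in replicates 1 and 2, although its sum, 720.0 FPKM, was the lowest of the 3 root libraries (735.2 and 745.2). The part of these reads in the results was not tested beyond leaving out each library.

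The gap was also read in libraries left out of a renewed choice of genes. All 12 libraries had served to choose the 58 genes, and the libraries of a tissue may be technical replicates. The numbers below therefore show only how far libraries of a tissue repeat each other. With replicate 1 of each tissue left out, 60 genes were chosen on the other 8 libraries, and in the 4 left-out libraries 51 of them again had a gap of at least 2 and 59 one of at least 1. With replicate 2 left out, 58 genes were chosen, of which 50 reached 2 and 57 reached 1. With replicate 3 left out these numbers were 57, 52 and 56. Of the genes chosen in this way 55, 55 and 54 were among the 58. The genes that fell under 1 in the left-out libraries were rows 23672 and 7535, neither of them stem-specific by all 12 libraries. Row 23672 was at 0.286, 45.6 and 0.133 FPKM in stem, so that its level rested on stem replicate 2.

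Recovered lengths of the stem-specific genes ran from 280 bases (row 21243) to 2679 bases (row 12703), with a median of 1190, against a median of 1350 and quartiles of 745 and 2059 over the genes tested. Of the 58, 37 lay within those quartiles. Lengths of at least 2000 bases were found in 13.8% of the stem-specific genes and 26.6% of the genes tested. By the same rule, the median length was 1143 bases for root-specific, 1157 for leaf-specific and 1342 for flower-specific genes. Row 12703 was at 63.2 ± 1.22 FPKM (SD, n = 3) in stem, 10.3 ± 0.224 in root, 9.31 ± 0.825 in leaf and 0.167 ± 0.0888 in flower. Row 21243 was at 17.8 ± 2.14 FPKM in stem, 3.08 ± 0.87 in root and 1.98 ± 0.83 in leaf.

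In 2 cases stem-specific genes stood in adjacent rows of the table. The sources used here do not say what orders the rows. Row 19360 was at 0.189, 0.204 and 0.199 of the level of row 19359 in stem, 0.163, 0.183 and 0.154 in root, 0.168, 0.145 and 0.166 in leaf, and 0.182, 0.0884 and 0.15 in flower. So this ratio lay between 0.0884 and 0.204, while the levels of both genes differed by over an order of magnitude between stem and flower. Row 28030 (918 bases) was at 0.234, 0.232 and 0.196 of the level of row 28029 in stem, where their means were 11 and 50.1 FPKM. This ratio varied more outside stem, at 0.238, 0.155 and 0.39 in root, 0.541, 0.186 and 0.265 in leaf, and 0, 0.276 and 1.06 in flower. Row 28030 had 888 reads over the stem libraries, against 31 in root, 144 in leaf and 9 in flower. Its root and flower ratios thus rest on few reads, and the variation was not tested against counting error. Nothing in the sources used here says how a read that fits several similar genes was counted, so the levels of such pairs are uncertain where the genes are alike in sequence.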

How the data were processed

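The authors deposited FPKM, normalized for gene length and library depth, in 1 table of 12 libraries, 3 each of stem, root, leaf and flower, matched to the labels by column name. HISAT2, HTSeq, fastp and R 3.2.0 are listed in the submitters' processing notes. Not given in the sources used here are the genome build, the annotation and whether counting used strand. Per the labels' protocols, RNA was extracted with TRIzol. The members and lists were chosen with earlier results of these data known.

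Library totals and gene lengths were recovered from the values as whole reads within 0.01 reads, for 100% of the 26625 rows above 0. A length can come out too short for a row with few reads. The gap used log2(FPKM + 1), which understates the change of low genes, on all rows. limma 3.58.1 (R 4.3.3) with a mean-variance trend was fitted to 20769 genes and 12 libraries with 8 residual degrees of freedom, tested on simulated data first. A call needed a Benjamini-Hochberg adjusted p under 0.05 and means at least 1 apart. Comparisons with stem were not tested, since they chose the genes.

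Named by rule are the 12 largest gaps, the 6 highest stem means, 3 genes on each side of the threshold, the 3 largest called differences in each direction of each pair, the 2 highest and 2 lowest coefficients of variation in stem, and the shortest and longest gene. Other genes were chosen after their values were seen.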

Additional observations from a re-analysis of the deposited data

How the results depend on the processing

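The number of stem-specific genes was 122 with a pseudocount of 0.1, which added 64 genes with a median stem mean of 3.08 FPKM, and 74 with a pseudocount of 0.5. It was 42 after median-ratio scaling, 39 when the lowest stem library was set against the highest other library, 56 with a stem mean of at least 5 FPKM, and 56 to 60 without one library. All 58 genes kept a positive gap under these settings. Counting calls without genes that passed the filter through stem alone, and the ratios without single libraries, were chosen after seeing the data.

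With a pseudocount of 0.1, 40 genes were called between root and flower, 9 of them higher in flower, and 3 were higher in flower than in leaf. After median-ratio scaling 8 were higher in flower than in root and 3 higher in flower than in leaf. Without one library, 1 to 2 genes were higher in flower than in leaf, with 2 without leaf replicate 3. The cause was not tested. Of 91 called differences, 79 kept their call under the 17 alternatives run, 12 lost it under at least 1 and none reversed. Row 23795 lost its leaf minus flower call with a pseudocount of 0.1 (1.29, limma adjusted p = 0.0736) and after scaling (0.80). Scaling also ended calls of rows 24456, 28612, 1538, 24124, 8835 and 17155.

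Replicate numbers are shared between tissues, but deviations of same-numbered libraries correlated at only -0.0365 to 0.0251, so they were not taken as pairs, and 6 of 12 libraries correlated best with their own number. A replicate block left the calls at 29, 26 and 36 for root and leaf, root and flower, and leaf and flower. Each tissue had 3 libraries. Levels near 0 FPKM rest on few reads, such as 4 over the root libraries for row 14274 at a mean of 0.063 FPKM. Nearer to 1 FPKM there could be more, such as 103 in root for row 26230 at 0.636 FPKM.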
